A study of Mus musculus with 12 samples.

Results

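The exons described here are cassette exons, which can be spliced into an mRNA or left out, whose length is not a multiple of 3. They were taken from the authors' deposited inclusion table by 3 conditions. An exon had to be at least 28 nt long with a length not divisible by 3, it needed a value in all 12 libraries, and its mean over those libraries had to lie between 2% and 98%. Of 95099 entries of that length class, 41733 had all 12 values, 34 of these had a mean under 2% and 37908 a mean over 98%, which left 3791 exons in 2473 genes. They were part of 6738 cassette exons and 28980 splicing events of all kinds that passed the same filter on values, and the whole table held 401633 entries. The exons were thus chosen by their length and their mean inclusion over all libraries, so the level of inclusion is a property of the choice. No difference between groups was a condition, but the mean includes the knockdown and rescue libraries. An exon over 98% in the controls could enter only if it was lower in other libraries. One such exon, in Pitpnm1, had control means of 100% and 98.1% and a mean of 89.3% over all 12 libraries. At the lower bound, a 61-nt exon of Psme4 averaged 1.93% and stayed out, and a 125-nt exon of Usp5 averaged 2.03% and came in. At the upper bound, a 110-nt exon of Iqcb1 averaged 98% and came in, and a 118-nt exon of Cdc42bpa averaged 98.0008% and stayed out. A single exon of 28 nt was kept, and 2 of 26 nt were not.

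N2a, a neuroblastoma line of the mouse, was used as 2 stable Flp-In rtTA lines that each carry a doxycycline-inducible cDNA for FLAG-tagged Sap30bp. In the exon-3-containing line the cDNA holds exon 3 of Sap30bp, and in the exon-3-lacking line it does not. Each line was studied as rescue (1 siRNA against Sap30bp, then doxycycline, which induces an siRNA-resistant cDNA), as knockdown (the same siRNA without doxycycline) and as control (a non-targeting siRNA pool without doxycycline), with 2 biological replicates in each of the 6 groups. Medium with or without doxycycline was given 24 h after transfection and cells were harvested at 72 h. Each library pooled the wells of 3 dishes in the rescue and knockdown groups and of 2 in the control groups. No group had the control siRNA with doxycycline, so the drug and the induced protein cannot be told apart, and isoform and cell line are likewise the same factor.

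Removing or adding an exon whose length is not a multiple of 3 shifts the reading frame of everything after it. The shifted frame usually meets a stop codon soon, and a stop codon well ahead of the last exon-exon junction is the classic trigger of nonsense-mediated decay, which degrades the mRNA. Some exons work the other way round: they carry a stop codon themselves, so that including them marks the mRNA for decay, and splicing factor genes are known to use such poison exons to limit their own output. SAP30BP is a nuclear protein that, in human cells, binds the splicing factor RBM17 (SPF45) and helps to splice short introns. Inclusion in a steady-state RNA sample is the share of transcripts present, so the making of an isoform and its decay cannot be told apart in it.

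The sequences below show what the frame change does at the exons the results turn on. Exons of the table were matched to GENCODE M21 transcripts (GRCm38) by gene symbol, exon length and the lengths of both flanking introns, since the table is on mm9, and 2766 of the 3791 exons (73.0%) found a match. Of these, 2124 allowed the exon to be taken out of an annotated coding transcript on paper, and in 1761 (82.9%) the first in-frame stop then lay more than 50 nt before the last junction, here called an early stop. For Slc9a5, Dpp7, Man2c1 and Use1, which all fell on knockdown, the exon is given in lower case, followed by the start of the next exon, with the stop codon that the shifted frame meets in capitals. Positions are on mm9. Slc9a5 lies at chr8:107881481-107881551 (+), Dpp7 at chr2:25209128-25209246 (-), Man2c1 at chr9:56986661-56986776 (+) and Use1, chosen for this after its values were seen, at chr8:73891543-73891592 (+).
Slc9a5 exon: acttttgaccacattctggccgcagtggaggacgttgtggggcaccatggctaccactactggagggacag
Slc9a5 next exon: gtgggaacagttTGAcaagaagtacct
Dpp7 exon: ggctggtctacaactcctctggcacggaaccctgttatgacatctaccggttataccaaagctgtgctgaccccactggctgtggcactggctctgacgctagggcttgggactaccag
Dpp7 next exon: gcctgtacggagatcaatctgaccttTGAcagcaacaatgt
Man2c1 exon: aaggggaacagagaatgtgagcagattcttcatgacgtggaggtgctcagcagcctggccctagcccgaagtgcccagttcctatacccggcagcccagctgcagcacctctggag
Man2c1 next exon: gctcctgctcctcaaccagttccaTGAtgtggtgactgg
Use1 exon: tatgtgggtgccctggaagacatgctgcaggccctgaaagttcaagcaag
Use1 next exon: TAAaccggcctcaga
In Slc9a5 the shifted frame ends at base 13 of the next exon, after 482 codons in place of 898. In Dpp7 it ends at base 27, after 329 of 506 codons, in Man2c1 at base 25, after 535 of 1037 codons, and in Use1 at base 1, after 45 of 270 codons.

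A second set shows exons that carry the stop themselves. The 73-nt exon of Ccnl1 at chr3:65759126-65759198 (-) and the 280-nt exon of Stoml1 at chr9:58103341-58103620 (+) matched no protein-coding transcript. The matched transcript used for each is annotated as a target of nonsense-mediated decay. Each exon is printed from its first base up to its stop codon, in capitals.
Ccnl1 exon to stop: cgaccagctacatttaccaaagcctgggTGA
Stoml1 exon to stop: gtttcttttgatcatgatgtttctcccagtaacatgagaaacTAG
The Ccnl1 stop begins at base 29 of the exon, 988 nt before the last junction, and the Stoml1 stop at base 43, 1001 nt before it. The third set holds exons of equal length that replace one another, where the frame is kept as long as exactly one is used. Tropomyosin gene Tpm1 has such a pair of 76 nt, at chr9:66879758-66879833 and chr9:66880273-66880348 on the minus strand, and collagen prolyl hydroxylase gene P4ha1 has a pair of 71 nt, at chr10:58817088-58817158 and chr10:58818098-58818168 on the plus strand. They are printed in transcript order.
Tpm1 first exon: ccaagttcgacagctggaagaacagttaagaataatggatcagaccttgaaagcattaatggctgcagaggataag
Tpm1 second exon: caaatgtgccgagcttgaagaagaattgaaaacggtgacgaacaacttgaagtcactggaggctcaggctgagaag
P4ha1 first exon: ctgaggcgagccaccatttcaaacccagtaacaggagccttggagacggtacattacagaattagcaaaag
P4ha1 second exon: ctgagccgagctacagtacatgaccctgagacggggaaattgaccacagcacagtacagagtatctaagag
Aligned end to end, the Tpm1 exons share 43 of 76 bases (56.6%) and the P4ha1 exons 42 of 71 (59.2%).

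Each library gave a value for 182904 to 207284 entries of any type, and for 47177 to 53752 entries of the length class described here. No read numbers accompany the percentages, so the depth behind a value is unknown and no counting interval can be given. Replicates of a group differed by a median of 2.15 to 2.87 percentage points over the 3791 exons. The median inclusion of the exons in a library was 93.8% and 94.2% in the knockdown libraries of the exon-3-containing line, against 95.1% and 94.9% in its controls, and 94.9% and 94.0% in the knockdown libraries, against 95.7% and 95.1% in the controls, with the exon-3-lacking cDNA. The authors' deposited table of gene expression has 1 RPKM value per group. There Sap30bp stood at 141 on rescue, 18.6 on knockdown and 33.6 RPKM in control cells with the exon-3-containing cDNA, and at 196 on rescue, 21.7 on knockdown and 40.03 RPKM in control cells with the exon-3-lacking cDNA. Knockdown against control had an FDR of 0.0684 and 0.0674. Neural and neuroblastoma markers were at 1 RPKM or more in every group for 8 of 13 genes, Tubb3 and Stmn2 among them, while Nefl and Nefm were at or near 0. Summed markers of fibroblasts, glia and immune cells came to at most 3.81, 10.5 and 2.59 RPKM. Neither Sap30bp nor its partner Rbm17 contributed an exon to the 3791.

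The exons were mostly included: 2680 averaged 90% to 98%, 423 between 80% and 90%, 273 between 50% and 80%, 134 between 20% and 50% and 281 under 20%. Their lengths had quartiles of 82, 112 and 154 nt. A length of 1 more than a multiple of 3 was found in 1940 and of 2 more in 1851. None overlapped another, but 822 genes held more than 1, so exons of a gene are not independent.

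Knockdown of Sap30bp lowered the inclusion of far more of these exons than it raised. With limma, averaged over both lines, 54 exons fell and 8 rose, at a Benjamini-Hochberg adjusted p under 0.05 and a difference of at least 15 percentage points. That is 1.64% of the 3791 exons, and over all tested events 1.48% were called and over all cassette exons 2.02%. For falls alone the shares were 1.42% of the exons, 0.483% of all events and 1.60% of all 6738 cassette exons, and for rises 0.211%, 1.00% and 0.416%. Among the 2752 cassette exons whose length is a multiple of 3, 50 fell and 18 rose (2.47%), a larger share than among the frame-shifting exons, though the difference between the sets was not tested. The sets differed in mean inclusion: 2680 of the 3791 and 1559 of the 2752 averaged 90% to 98%, where 0.112% and 0% fell. The shares that fell were 3.07% and 1.72% from 80% to under 90%, and 10.3% and 7.95% from 50% to under 80%. They were 5.97% and 5.84% from 20% to under 50%, and 0.712% and 0.997% under 20%. The median difference was -0.68 points over the frame-shifting exons, -0.52 over the frame-preserving ones and 0.39 over all events, and 60.4% of the frame-shifting exons lay below 0. The number of calls changed with single libraries: it was 28 without control replicate 1 of the exon-3-containing line, 29 without control replicate 1 of the exon-3-lacking line and 33 without knockdown replicate 2 of that line. The calls of 8 exons, those of Arhgap33, Arfrp1, Cuta, Ccnl1, Ikbkb, Snrpn, Tgfb1i1 and Slc9a5, held in all 19 alternatives tried, and each of the other 54 was lost in at least 1. One of the 19, a threshold of 10 points, could not lose a call. Arfrp1 and Snrpn were named for this reason, after their values were seen.

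**Figure D1:**
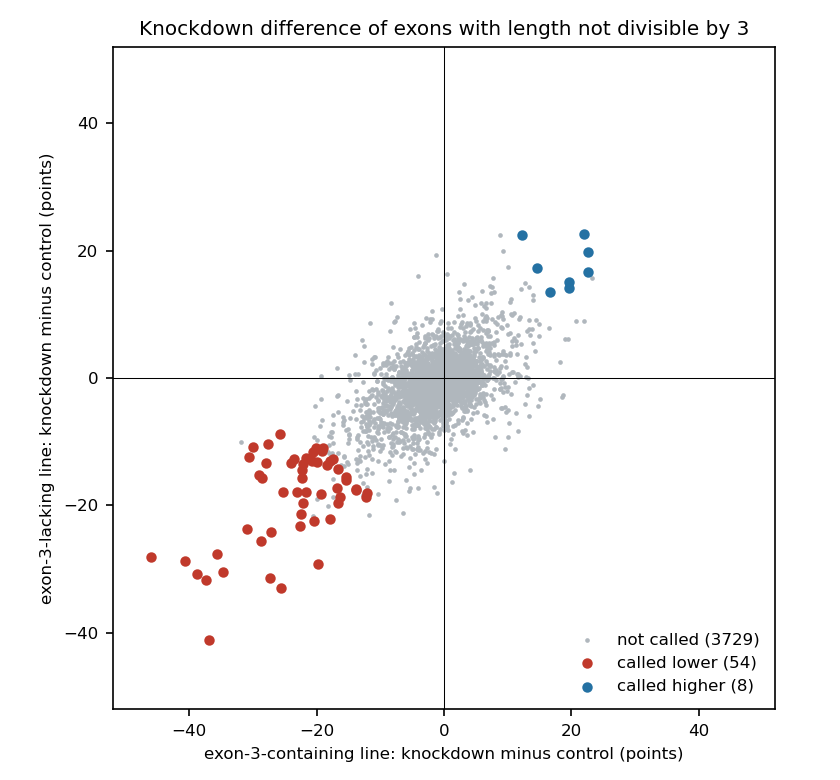
Knockdown minus control, in percentage points of inclusion, for each of the 3791 exons in the exon-3-containing line (x axis) and the exon-3-lacking line (y axis). The 54 exons called lower lie below 0 in both lines and the 8 called higher lie above 0 in both.

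The called exons were also looked at library by library. They had been called on these same libraries, so groups without overlap are no separate evidence for the calls. In 53 of the 54 exons that fell, both knockdown libraries lay below both control libraries in each line, the exception being Anks3, whose libraries overlapped in the exon-3-lacking line. It was looked up for this count. Over all tested events such a lower, non-overlapping pattern in both lines was met by 6.99%, and over the 3791 exons by 14.4%. All 8 exons that rose were above their controls without overlap in both lines, a pattern met by 11.0% of all events and 5.38% of the 3791 exons.

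On mm9, the exons described next that were not placed above lie at chr7:31311771-31311982 (-) in Arhgap33, chr17:25865197-25865336 (+) in Rpusd1, chr1:75488803-75488917 (-) in Obsl1, chr19:7063913-7064046 (-) in Dnajc4 and chr1:135191140-135191285 (+) in Plekha6. The exon with the largest difference lies in Ccnl1, which encodes cyclin L1, a partner of the kinase CDK11 that regulates splicing. Its 73-nt poison exon was included at 27.2% and 27.8% in the knockdown libraries of the exon-3-containing line, against 62.3% and 66.5% in the controls, and at 31.1% and 24.8% on knockdown against 72.0% and 66.4% in controls of the exon-3-lacking line. No knockdown library came near a control, and inclusion fell by 39.1 ± 3.00 points (SE; limma adjusted p = 0.00103). This was the one frame-shifting exon called in the exon-3-lacking line by itself.

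Among genes of membranes and signalling, the 71-nt exon of Slc9a5, a sodium-proton exchanger of neurons, was included at 30.2% and 25.2% on knockdown against 75.9% and 71.6% in the control libraries of the exon-3-containing line, and at 42.4% and 39.3% on knockdown against 74.5% and 63.4% in controls of the exon-3-lacking line. The knockdown libraries of both lines stayed below every control, with a difference of -37.1 ± 3.63 points (adjusted p = 0.0026). The 212-nt exon of Arhgap33, a GTPase-activating protein, stood at 33.2% and 41.9% on knockdown against 79.5% and 73.0% in controls of the exon-3-containing line and at 44.6% and 34.9% on knockdown against 71.5% and 69.4% in controls of the exon-3-lacking line, a fall of 34.7 ± 3.69 points (adjusted p = 0.00292). Its knockdown and control libraries did not overlap. Plekha6 encodes a pleckstrin-homology domain protein. Its 146-nt exon stood at 35.9% and 25% on knockdown against 66.9% and 48.6% in controls of the exon-3-containing line and at 38.3% and 29.6% on knockdown against 71.7% and 58.9% in controls of the exon-3-lacking line. Here replicates were wide apart and the difference of -29.4 ± 6.62 points passed narrowly (adjusted p = 0.0356).

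Obsl1, an obscurin-like cytoskeletal adaptor, has a 115-nt exon that was included at 37.1% and 32.9% on knockdown against 79.0% and 65.9% in the controls of the exon-3-containing line, and at 22.8% and 33.5% on knockdown against 58.4% and 61.3% in controls of the exon-3-lacking line. Groups did not overlap in either line, and the exon fell by 34.6 ± 4.14 points (adjusted p = 0.0036). The 140-nt exon of Rpusd1, which encodes a protein of the pseudouridine synthase family, lies in the 5′ UTR. It stood at 28.8% and 30.9% on knockdown against 73.8% and 67.3% in controls of the exon-3-containing line and at 51.5% and 32.3% on knockdown against 78.5% and 62.6% in controls of the exon-3-lacking line. The knockdown replicates of the exon-3-lacking line were the farthest apart, yet both were below the controls, and the difference was -34.7 ± 4.93 points (adjusted p = 0.00577).

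In Dpp7, a dipeptidyl peptidase of the lysosomal system, the 119-nt exon printed above was included at 62.9% and 43.6% on knockdown against 87.7% and 88.4% in the controls of the exon-3-containing line, and at 69.9% and 48.5% on knockdown against 88.0% and 91.2% in controls of the exon-3-lacking line. It fell by 32.6 ± 5.01 points (adjusted p = 0.00805), again without overlap. Dnajc4 encodes a J-domain protein of the chaperone system, and its 134-nt exon stood at 56.2% and 42.2% on knockdown against 87.4% and 82.5% in controls of the exon-3-containing line, and at 67.1% and 52% on knockdown against 94.96% and 79.3% in controls of the exon-3-lacking line. The difference was -31.7 ± 4.82 points (adjusted p = 0.00786), with no knockdown library as high as any control.

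The next 7 exons by size fell by 22.2 to 29.3 points. They lie in Ppm1n (106 nt), a phosphatase of the PPM family, Setd6 (58 nt), a lysine methyltransferase, Tgfb1i1 (116 nt), the focal adhesion protein Hic-5, Man2c1 (116 nt), a cytosolic alpha-mannosidase, Pitpnm1 (251 nt), a phosphatidylinositol transfer protein, Cuta (52 nt) and Ikbkb (91 nt). Pitpnm1 was close to full inclusion in the controls: it stood at 87.3% and 69.5% on knockdown against 100% and 96.2% in the controls of the exon-3-containing line, and at 77.8% and 63.9% on knockdown against 100% in both controls of the exon-3-lacking line. Ikbkb encodes the kinase IKK-beta of the NF-kappa-B pathway, and its exon had the smallest standard error of the 54, at -22.2 ± 1.92 points (adjusted p = 0.00103). The Ikbkb stop after skipping would lie past the last junction, so it is no early stop.

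The exons that rose included one of each same-length pair. Those not placed above lie at chr8:77522734-77522837 (+) in Hmgxb4, chr6:149133514-149133646 (-) in Amn1, chr8:47655325-47655433 (+) in Mlf1ip, chr15:79596217-79596283 (-) in Dnalc4 and chr4:140627496-140627610 (-) in Necap2. The first Tpm1 exon was included at 54% and 59.5% on knockdown against 33.8% and 35.7% in the controls of the exon-3-containing line, and at 46.3% and 58.7% on knockdown against 25.2% and 34.4% in controls of the exon-3-lacking line. The second stood at 46.9% and 43.3% on knockdown against 69.0% and 66.0% in controls of the exon-3-containing line, and at 54.7% and 46.2% on knockdown against 77.3% and 66.4% in controls of the exon-3-lacking line. The first rose by 22.4 ± 3.8 points (adjusted p = 0.0118) and the second fell by 21.9 ± 3.40 (adjusted p = 0.00839), so the groups moved in mirror image and without overlap in both lines. P4ha1 encodes the catalytic subunit of collagen prolyl 4-hydroxylase. Its first exon was at 50.6% and 44.2% on knockdown against 28.8% and 32.8% in controls of the exon-3-containing line and at 42.2% and 39.5% on knockdown against 27.6% and 27.2% in controls of the exon-3-lacking line, a rise of 15.01 ± 2.96 points (adjusted p = 0.0206). The second P4ha1 exon, looked up after the first had been called, was 14.3 ± 2.94 points lower (adjusted p = 0.0245) and so short of the 15 points a call needs. For such pairs the early stop of the skipped form arises only where neither exon is used.

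Hmgxb4, an HMG-box protein, has a 104-nt exon with the start codon that was included at 83.1% and 89.9% on knockdown against 65.8% and 62.0% in the controls of the exon-3-containing line, and at 82.1% and 86.9% on knockdown against 61.7% and 67.6% in controls of the exon-3-lacking line (a rise of 21.2 ± 2.93 points, adjusted p = 0.00549). The poison exon of Stoml1, a stomatin-like membrane protein, was at 44.3% and 44.2% on knockdown against 18.2% and 25.2% in controls of the exon-3-containing line, and at 49.9% and 40.8% on knockdown against 28.7% and 28.6% in controls of the exon-3-lacking line. In both genes knockdown and control libraries stayed apart, and the Stoml1 exon rose by 19.6 ± 3.92 points (adjusted p = 0.0223).

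Amn1, whose yeast counterpart acts in mitotic exit, had its 133-nt exon at 81.9% and 84.0% on knockdown against 67.2% and 74.2% in the controls of the exon-3-containing line, and at 87.9% and 86.1% on knockdown against 62.1% and 66.9% in controls of the exon-3-lacking line. The 109-nt exon of Mlf1ip, which encodes the centromere protein CENP-U, was at 84.2% and 91.0% on knockdown against 66.7% and 69.4% in controls of the exon-3-containing line, and at 87.3% and 92.0% on knockdown against 69.5% and 79.6% in controls of the exon-3-lacking line. Both rose by 17.4 points, without overlap, with adjusted p = 0.00465 for Amn1 and 0.0103 for Mlf1ip. The 67-nt 5′ UTR exon of Dnalc4, a dynein light chain, was at 42.1% and 40.9% on knockdown against 17.9% and 25.97% in controls of the exon-3-containing line, and at 31.7% and 34.5% on knockdown against 13.9% and 23.9% in controls of the exon-3-lacking line. The 115-nt exon of Necap2, a protein of clathrin-mediated endocytosis, was at 55.8% and 54.7% on knockdown against 41.2% and 39.9% in controls of the exon-3-containing line, and at 67.1% and 62.8% on knockdown against 48.1% and 47.2% in controls of the exon-3-lacking line. Dnalc4 rose by 16.9 ± 3.40 and Necap2 by 15.98 ± 2.95 points (adjusted p = 0.0227 and 0.0156), and control libraries lay below all knockdown libraries in both.

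**Figure D2:**
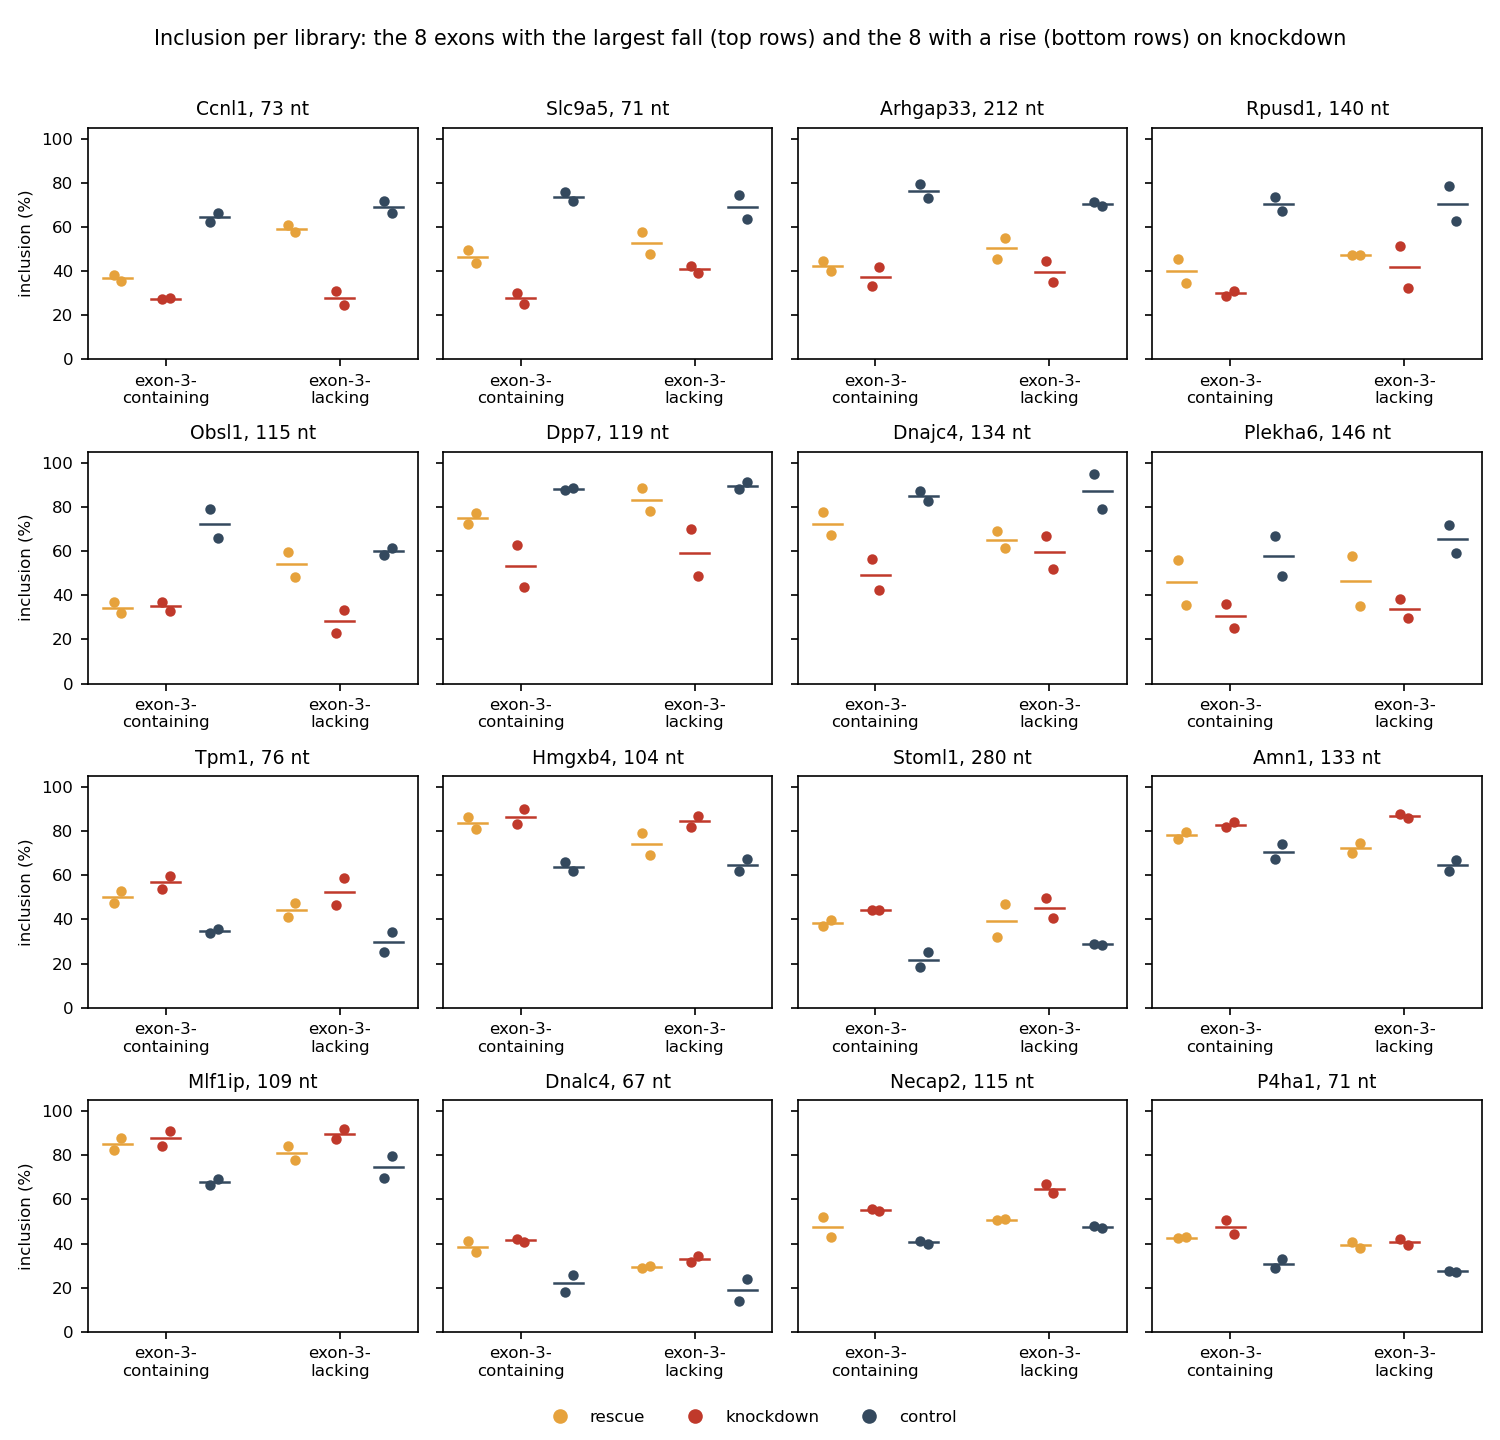
Inclusion in percent (y axis) of the 8 exons with the largest fall (upper 2 rows) and the 8 exons that rose (lower 2 rows), with 1 point per library and a bar at the mean of 2, by line and group. Control points stand above the knockdown points in the upper rows and below them in the lower rows.

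By the role of the host gene, calls were scattered, beside 1.64% called of all 3791 exons and 1.48% of all tested events. In the core spliceosome list, 27 frame-shifting exons of 17 genes were measured and 1 fell, the 100-nt exon of Prpf39 (-20.6 ± 3.32 points, adjusted p = 0.00949), a protein of the U1 snRNP. The Prpf39 exon also matched no protein-coding transcript, and the stop of the decay transcript used lies ahead of the exon. Among tissue splicing regulators 1 of 27 exons fell, Ccnl1, which the kinase and cyclin list (56 exons) holds too. None of 20 exons in SR and hnRNP genes, of 12 in the list of decay and exon junction genes, or of 82 in DNA replication and repair genes was called. At a share of 1.64%, lists of 12 to 82 exons are too short for a missing or single call to describe a family. No list was tested against that share. Of 63 exons in chromatin genes 2 fell: the 203-nt exon of Ep400, a remodelling ATPase, by 16.6 points, and the 202-nt exon of Mtf2, a Polycomb accessory protein, by 21.5. Of 67 in transporters and channels, Slc9a5 fell, and so did the 118-nt exon of Slc38a10, of an amino acid transporter family, by 17.0 points. In tRNA and RNA modification genes 2 of 34 fell, Rpusd1 and the 137-nt exon of Trub2, a pseudouridine synthase (-15.5 points). The cytoskeleton and motor list had 2 falls and 1 rise in 24 exons, the rise and 1 fall being the Tpm1 pair. The small GTPase list had 1 fall in 37 and the lysosome list 1 fall in 33. Median differences of the 12 lists ran between -1.89 and 0.55 points, beside -0.68 for all 3791.

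Falling exons stood next to short introns more often than the exons at large. The shorter flanking intron was under 200 nt for 29 of the 54 and for 551 of the 3791. Among exons with a flanking intron under 100 nt, 18 of 253 fell (7.11%). The share was 3.69% (11 of 298) from 100 to under 200 nt, 1.46% (16 of 1094) from 200 to under 1000 nt and 0.419% (9 of 2146) where both introns had 1000 nt or more. The median difference followed, at -3.17, -2.34, -0.83 and -0.24 points. Of the frame-preserving exons in the same classes, 7.09%, 4.29%, 2.08% and 0.848% fell. No exon that rose had a flanking intron under 200 nt. These shares are counts without a test.

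**Figure D3:**
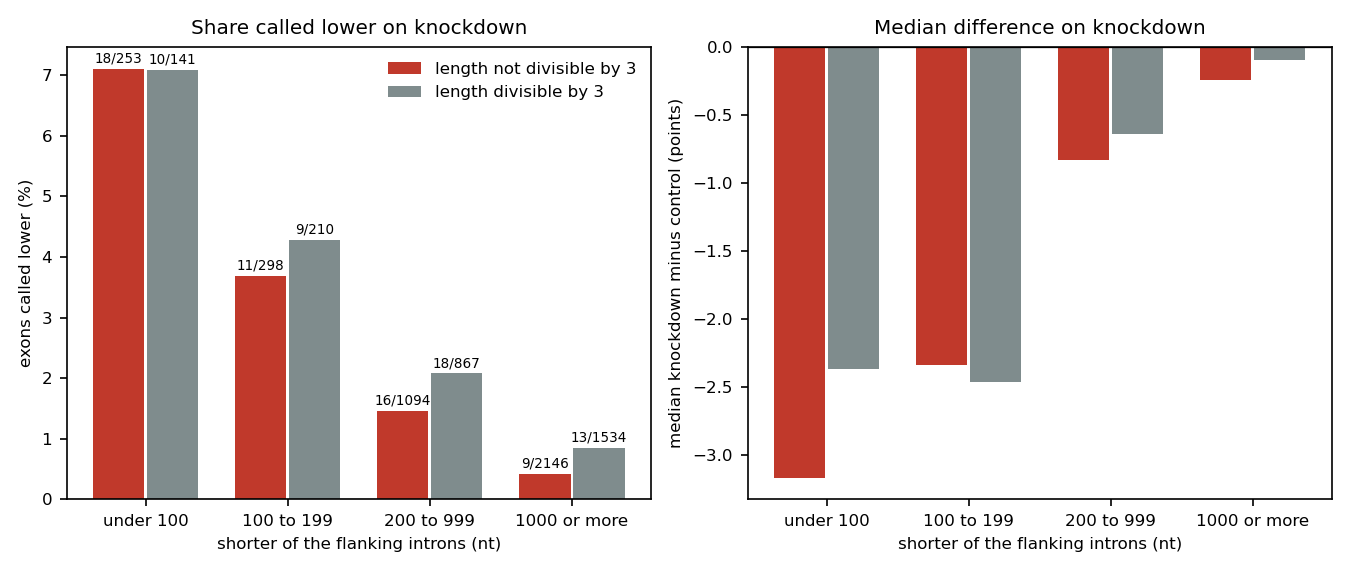
Share of exons called lower on knockdown in percent, with counts over the bars (left), and median knockdown minus control difference in percentage points (right), by the shorter flanking intron, for exons with length not divisible by 3 and divisible by 3. In the first set the share called runs from 7.11% at under 100 nt down to 0.419% at 1000 nt or more.

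Of the 54 falling exons, 28 had a control mean over 80% and 4 under 50%. Of the 54, 28 had a length 1 above a multiple of 3 and 26 a length 2 above, with a median of 117 nt beside 112 nt for all 3791.

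Some exons fell together with greater retention of the intron beside them. A neighbouring intron was itself tested for 29 of the 54 falling exons, and for 7 of these at least 1 intron was retained more by the same rule, 10 of 44 introns in all (22.7%), while 1.49% of all tested introns were called so. The median difference of the 44 introns was 7.25 points, against 0.82 over all tested introns. Dpp7 gained on both sides: the 506-nt upstream intron was retained at 58.4% ± 8.35 on knockdown against 31.7% ± 5.51 in the controls of the exon-3-containing line (SD, n = 2 each), and its 91-nt downstream intron at 39.9% ± 9.26 on knockdown against 14.2% ± 2.04 in those controls. Over both lines these introns were 26.97 ± 4.61 and 24.4 ± 4.53 points higher (adjusted p = 0.012 and 0.0164). In Plxna3, named for its intron values, the 191-nt exon fell by 18.1 points while its 134-nt and 85-nt introns were 38.6 and 40.2 points higher (adjusted p = 0.00475 and 0.00992). Skiv2l showed both introns called as well, and Setd6, Pitpnm1, Nt5c and Lrrc45 1 each, the genes outside the 15 largest falls being named here and below for their values. In Ppm1n the exon fell by 29.3 points between introns of 79 and 74 nt whose retention was 3.08 and 2.72 points higher (adjusted p = 0.312 and 0.308). Rpp21, Fdxr and Mpdu1, with flanking introns down to 76, 118 and 92 nt, had differences between -2.07 and 3.46 points there. None of 4 introns beside rising exons was called, and all 4 were lower on knockdown. Exon inclusion and intron retention draw in part on reads across the same splice junctions, so they are not independent measures.

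**Figure D4:**
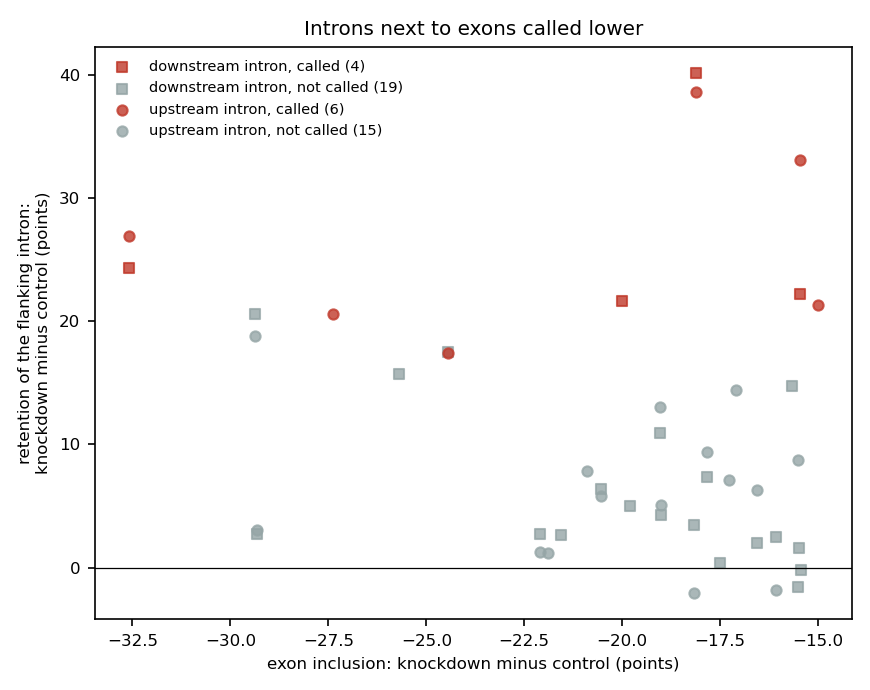
Knockdown minus control difference of the 44 tested introns (y axis, percentage points of retention) against that of the falling exon beside them (x axis, percentage points of inclusion). Of 44 introns 10 were called, at 17.5 to 40.2 points, and exons with similar falls had neighbours from near 0 to 40.2 points.

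What skipping would do differed among the 54. Of the 32 that lie inside a coding sequence, 25 would give an early stop if left out alone. So would 1761 of the 2124 modelled exons. The other 7 of the 32 would not, among them Ppm1n, Ikbkb and Nadk. Plekha6, at 51 nt before the last junction, and Rpp21, at 50 nt, sit on either side of the limit. Another 3 lie in the 5′ UTR, 2 hold the start codon (Cuta is one), 6 matched only transcripts annotated as non-coding or as decay targets and 11 had no match. Neighbouring exons can restore the frame: Tars2, a mitochondrial threonine-tRNA ligase named for this, lost both of a pair of 125 and 118 nt, by 17.3 and 19.0 points. Together they measure 243 nt, a multiple of 3. Both called exons of Setd6 add up to 239 nt, which is not. The falling exons of Eno2, of 134 and 223 nt, have lengths 2 and 1 above a multiple of 3, so leaving out both would keep the frame. They matched no transcript, and whether both are missing from the same mRNA was not tested. The 25 with an early stop include the 118-nt exon of Tars2 and the second Tpm1 exon, whose partner of equal length rose. Of 496 pairs of frame-shifting exons joined by an intron, 245 sum to a multiple of 3.

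Few host genes changed in expression. In the authors' deposited table, the genes of the 54 falling exons had a median log2 fold change of -0.10 in each line, knockdown over control, beside -0.01 in each line over the genes of all 3791 exons. The 25 genes with an early stop on skipping stood at -0.21 in the exon-3-containing line and -0.20 in the exon-3-lacking line, with 18 and 17 of them below 0. At the authors' FDR under 0.05, 4 of 51 genes were lower in the exon-3-containing line and 1 in the exon-3-lacking line, where 2.21% and 1.15% of all genes were. Eno2, the neuronal enolase with 2 falling exons, was the gene lower in both. It stood at 43.6 on rescue, 46.5 on knockdown and 139 RPKM in control cells with the exon-3-containing cDNA. With the exon-3-lacking cDNA it stood at 107 on rescue, 82.5 on knockdown and 197 RPKM in control cells. Inclusion of its 2 exons differed between rescue and knockdown by -3.80 to 0.71 points over the 2 lines. Fam193b, Fdxr and Miip were the other 3 in the exon-3-containing line, named because they passed. P4ha1, with a rising exon, was lower in both lines too (log2 fold change -0.76 and -0.79). Its rescue values were 30.1 RPKM with the exon-3-containing and 48.8 RPKM with the exon-3-lacking cDNA, beside 33.3 and 44.2 on knockdown. The controls of P4ha1 stood at 58.1 and 77.7 RPKM. Expression on rescue was not tested here. Ccnl1 had a log2 fold change of 0.34 and 0.07, with an FDR of 0.508 and 1. In bulk RNA, fewer cells with a transcript and less of it per cell cannot be told apart.

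Fewer exons passed in a single line. In the exon-3-containing line 20 fell and 2 rose by the limma rule, where 0.338% of all tested events were called (0.141% lower and 0.197% higher), and in the exon-3-lacking line only Ccnl1 was called, where 0.0207% were. The largest falls in the exon-3-containing line were the differences of Slc9a5 (-46.0 points), Rpusd1 (-40.7), Arhgap33 (-38.7), Obsl1 (-37.4) and Ccnl1 (-36.9). Leaving out either control library of that line left no call, and leaving out either control library of the exon-3-lacking line left 4. The count was also 10 and 14 without rescue replicate 1 or 2 of the exon-3-lacking line, and 13 without knockdown replicate 2 of the exon-3-containing line. In the exon-3-lacking line the call of Ccnl1 was lost in 8 of 19 alternatives, and without its knockdown replicate 1 the count was 30. With the replicate number taken as a batch, 48 exons were called in the exon-3-containing line and 16 in the exon-3-lacking line. The lines share no library, so the exons called in one can be read in the other. All 20 that fell in the exon-3-containing line were also lower in the exon-3-lacking line, by a median of 13.8 points, and both that rose were higher there. The test of a difference in knockdown effect between the lines called no exon (limma, 167 at an unadjusted p under 0.05), as it called 0% of all tested events. In the authors' deposited table of splicing calls, 96 of the 3791 exons were called in the exon-3-containing line (81 lower) and 61 in the exon-3-lacking line (48 lower), where 2.00% and 1.46% of the tested events were. They shared 33 exons, 34.4% of the first list and 54.1% of the second, all with the same sign, and 60 of the 62 exons called by limma over both lines were among the authors' calls in at least 1 line.

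Inclusion in the rescue groups lay between knockdown and control. Over the 54 falling exons the median inclusion was 67.2% in rescue, 56.9% in knockdown and 81.2% in control libraries of the exon-3-containing line, and 68.5%, 60.7% and 80.9% in the exon-3-lacking line. Rescue was higher than knockdown for 50 of 54 exons in the exon-3-containing line and for 53 in the exon-3-lacking line, and lower than control for 53 and 52. Since the knockdown libraries had chosen these exons, the same was read from exons chosen in the other line with the authors' calls. The 48 exons called lower in the exon-3-lacking line were, in the exon-3-containing line, a median of 7.27 points higher on rescue than on knockdown and 10.2 points lower than in the controls, after a knockdown difference of -18.0. The 81 called lower in the exon-3-containing line were, in the exon-3-lacking line, 5.43 points higher on rescue than on knockdown and 7.28 points lower than in the controls, after a knockdown difference of -13.3. Over all 3791 exons the medians of rescue against knockdown were 0.51 and 0.085 points.

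No single exon passed the limma rule in either rescue comparison. For rescue against knockdown there were 328 exons at an unadjusted p under 0.05 in the exon-3-containing line and 275 in the exon-3-lacking line, and 0% and 0.00345% of all tested events were called. For rescue against control there were 415 and 242 such exons, and 0% and 0.00345% of events were called. In the authors' deposited calls, 14 and 15 of the 3791 exons were called for rescue against knockdown, where 0.242% and 0.745% of tested events were, and 56 and 27 for rescue against control, where 0.787% and 0.407% were. The Ccnl1 exon was at 38.5% and 35.4% on rescue against 27.2% and 27.8% on knockdown in the exon-3-containing line, and at 60.7% and 57.6% on rescue against 31.1% and 24.8% in knockdown libraries of the exon-3-lacking line. Rescue libraries were above knockdown libraries in both lines, by 9.49 points in the first (adjusted p = 0.728) and 31.2 in the second (adjusted p = 0.164). The Obsl1 exon was at 37.0% and 31.8% on rescue against 37.1% and 32.9% on knockdown in the exon-3-containing line, and at 59.6% and 48.4% on rescue against 22.8% and 33.5% in knockdown libraries of the exon-3-lacking line. Its rescue and knockdown libraries thus overlapped in the exon-3-containing line and not in the exon-3-lacking line. The rescue effect differed between the lines, exon-3-containing minus exon-3-lacking, by -21.7 points for Ccnl1 and by -26.5 for Obsl1 (unadjusted p = 0.004 and 0.00857), and both were far from the adjusted threshold (0.912 and 0.928). No exon was called for this difference, with 231 at an unadjusted p under 0.05, beside 0.00345% of all tested events. Ikbkb was at 84.7% and 85.7% on rescue against 62.5% and 67.2% on knockdown in the exon-3-containing line, and at 91.3% and 92.3% on rescue against 82.6% and 75.5% in knockdown libraries of the exon-3-lacking line. These are differences of 20.4 and 12.8 points, without overlap in either line and with adjusted p = 0.117 and 0.2. Ikbkb control libraries, with 94.5% and 93.3% for the exon-3-containing cDNA and 94.6% and 93.9% for the exon-3-lacking cDNA, lay above every rescue library. Rescue against knockdown and knockdown against control share the knockdown libraries and so are not independent.

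**Figure D5:**
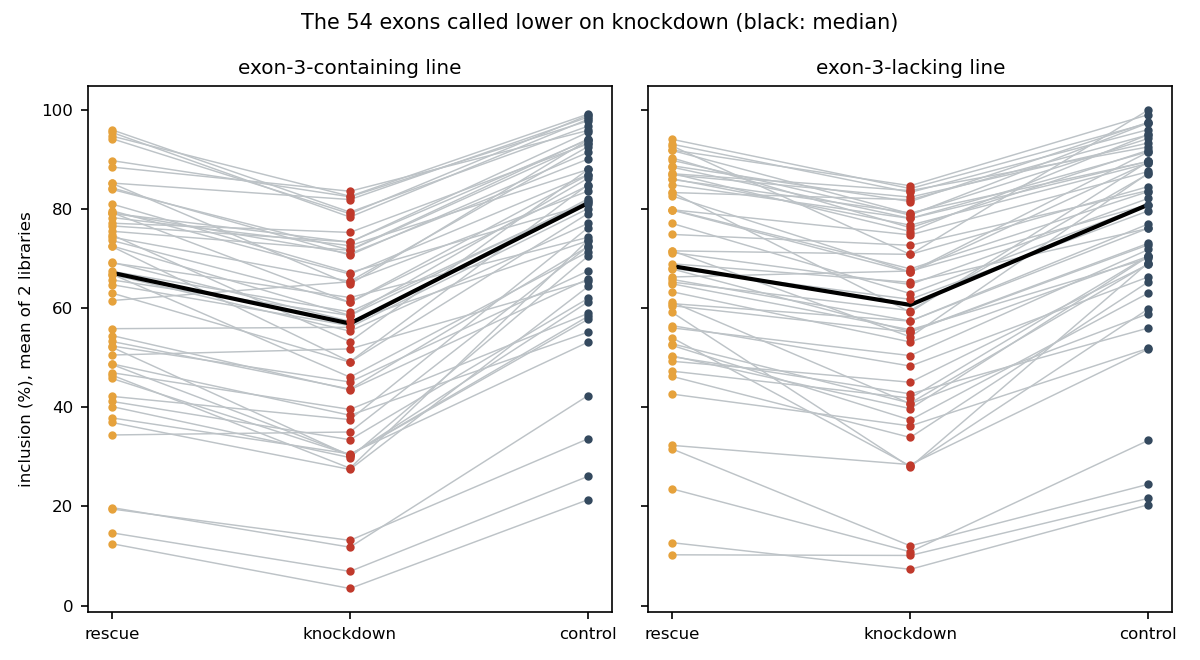
Mean inclusion of 2 libraries in percent (y axis) for the 54 exons called lower on knockdown, by group, in the exon-3-containing line (left) and the exon-3-lacking line (right). Grey lines join the values of an exon and the black line joins medians, which were 67.2%, 56.9% and 81.2% on the left and 68.5%, 60.7% and 80.9% on the right.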

How the data were processed

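RNA-seq of 12 libraries was analysed from processed tables. The inclusion values are deposited percentages per event and library from vast-tools on mm9, per the file headers. The authors' expression table holds RPKM, 1 value per group, with log2 fold changes and p-values with FDR, and their splicing table holds inclusion differences, deposited as a score in percentage points with a call. Salmon 0.14.1 and edgeR are named in the submitters' processing notes, with no role. Calls in the authors' deposited splicing table all have a difference of over 15 points, but some differences as large were not called, and the sources used here do not give the rest of that rule, the version of vast-tools or its coverage minimum. No read counts accompany the percentages, so the depth behind a value is unknown.

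Percentages were fitted with limma 3.58.1 (R 4.3.3) as 6 group means with a variance trend and robust moderation, over the 28980 events that have 12 values and average 2% to 98%. Entries that repeat the first site of a splice site group were left out (37194). P-values were adjusted by Benjamini-Hochberg over all 28980 events, and a call needs an adjusted p under 0.05 and 15 percentage points. Since each group has 2 biological replicates, p-values measure the spread between these samples. The fit was tested on simulated data. Tables were made with Python 3.11.15 and pandas 2.3.3. Skipping was modelled by taking the exon out of a GENCODE M21 coding transcript (GRCm38), reading on to the first stop codon and measuring to the last junction.

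The exons, gene lists and tests were chosen with earlier results of these data known. Named exons are the 15 largest falls and up to 10 rises over both lines (8 were called), the 5 largest calls of other comparisons, called exons of listed genes and those at the thresholds; others are said to be named after their values were seen. Alternatives were a logit scale, other filters, no variance trend, a replicate block, 10 points and leaving out each library. Some items are not reported here.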

Additional observations from a re-analysis of the deposited data

How the results depend on the processing

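For knockdown against control over both lines, the 62 calls became 8 without a filter on mean inclusion and 123 at 10 percentage points, and they ranged from 28 to 86 when 1 library was left out. In the exon-3-containing line the 22 calls became 6 on the logit scale, 14 with values in at least 10 of 12 libraries, 3 with no filter on the mean and 39 with a mean between 5% and 95%, and they ranged from 0 to 31 with 1 library left out. In the exon-3-lacking line the 1 call became 8 with a mean between 5% and 95% and 7 with no trend, and ranged from 0 to 30. For rescue against knockdown, 0 calls became 1 with no filter on the mean and 1 with no trend in the exon-3-lacking line (0 to 4 with 1 library left out), and 1 on the logit scale in the exon-3-containing line (0 to 1). With 1 library left out, the count ranged from 0 to 1 for rescue against control in the exon-3-containing line and for both differences between the lines. The median difference of -0.68 points became -1.26 with a mean between 5% and 95% and ranged from -0.90 to -0.52 with 1 library left out. The cause was not tested. No called exon reversed, but only leaving out a control or knockdown library could change the sign of a knockdown difference. For the 62 exons called over both lines, 928 of 1178 alternative values kept the call and 250 lost it. The alternative of 10 points could not lose a call, so its values are kept by construction.

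The replicate block, which takes the replicate number as a batch, gave 68 calls over both lines, 48 in the exon-3-containing line and 16 in the exon-3-lacking line. Deviations of same-numbered libraries correlated at 0.17 to 0.206 between groups of the exon-3-containing line, at 0.149 to 0.31 between groups of the exon-3-lacking line and at 0.0417 to 0.221 across the lines. With 2 numbers, and labels that tie them to nothing shared, the libraries were not taken as pairs.

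With 2 libraries a group, no depth and a single siRNA, differences under the replicate spread of an exon could not be resolved. That spread had a median of 2.15 to 2.87 points and a 95th percentile of 10.2 to 12.6 points, so for some exons much larger differences were out of reach. A missing call does not show that an exon was unaffected.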

Other observations

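Frame-shifting exons with more than 1 call in a gene were found in Setd6, Tars2 and Eno2, and in Tpm1 with opposite directions. In Eno2 the differences were -18.7 points for the 134-nt exon and -15.995 points for the 223-nt exon. Among 1746 exons with a length divisible by 3 whose skipping could be modelled, 10 would give an early stop. The median flanking introns of the 8 rising exons were 1686 nt upstream and 1149 nt downstream, beside 440 and 514 nt for the 54 falling exons and 2393 and 2457 nt for all 3791. Over the 8 rising exons the median inclusion was 48.8% in rescue, 56.0% in knockdown and 37.6% in control libraries of the exon-3-containing line, and 47.5%, 58.7% and 38.7% in the exon-3-lacking line, with rescue below knockdown for all 8 in both lines. The knockdown libraries had chosen these 8 exons. For 13 exons the authors called higher in the exon-3-lacking line, rescue minus knockdown had a median of -4.575 points in the exon-3-containing line. Of these 13, 5 were higher on rescue there. For 15 called higher in the exon-3-containing line, the median was -7.86 points in the exon-3-lacking line, with 0 higher on rescue.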
